A study of Mus musculus with 45 samples.

Results

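Hepatic stellate cells (HSCs) that had been kept for 2 hours in suspension (d0), the starting point of a culture experiment, were compared with HSCs taken from control mice of the 2 animal experiments of the same study. The comparison used 11 of the 45 libraries: all 3 d0 libraries (A to C), the 4 chow libraries (labelled WD 0weeks, A to D) and the 4 vehicle libraries (labelled CCl4 0weeks, A to D). Libraries were put in groups by their labels. The later step from d0 to the first day of culture (d1, 3 libraries) was set beside it.

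HSCs are the pericytes of the liver and store vitamin A as retinyl esters in lipid droplets. After injury, or when plated on plastic, they lose these droplets, divide and turn into myofibroblasts that secrete collagen. Freshly isolated HSCs are the usual reference for such cultures, although isolation itself takes cells out of the tissue through enzymes, a density gradient and a sorter.

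All cells came from male mice, of the strain C57BL6/J in the labels and C57BL/6JBomTac in the study's methods, and all were isolated by perfusion with pronase and collagenase, separated on a density gradient and sorted as live cells by the autofluorescence of their retinoids. HSCs that had lost their retinoids would not have been sorted in any group. The chow mice ate standard chow with plain water and were of the same age as the mice fed Western diet (WD) with fructose. The vehicle mice received corn oil by gavage for as long as the longest course of CCl4, a solvent that injures hepatocytes. They were fasted like the mice given CCl4. The ages of the vehicle mice and of the mice that gave the d0 cells are not given in the study's methods. The d0 cells were sorted, held in suspension in DMEM with serum, penicillin, streptomycin and amphotericin, centrifuged and snap frozen. Whether they were pooled from several mice is not given, and the study calls its cultures technical triplicates in one place and the sequenced RNA biological replicates in another. If the d0 libraries came from 1 preparation, p-values against the controls measure a spread that is technical on the d0 side. If the later culture groups did too, p-values between culture groups measure a spread that is technical on both sides.

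The time in suspension was therefore confounded with the experiment. The d0 libraries belong to another experiment and another table than the control libraries, days of isolation are not given in the sources used here, the freezing step was applied to d0, and the study's methods name a different lysis reagent for cultured than for sorted cells while the labels name one buffer for all. No sorted cells of the culture experiment lysed without the 2 hours were analysed here. Effects of the suspension, the medium, freezing, age, fasting and the experiment cannot be told apart in any value below. In bulk samples, fewer cells of a type and less RNA per cell cannot be told apart either.

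Rows of the 3 tables were joined by line and are called by line number, since the counts did not follow the listed identifiers. The identifiers of B2m, Tpt1, Ybx1 and Col1a1 were listed at 0 counts in all 11 libraries. Olfactory and pheromone receptors, defensins and keratin-associated proteins passed the filter on low counts in 52.9% of 1604 cases, against 53.0% of all 23999 rows. Rows are therefore unnamed genes, no function can be given for them, and the HSC label could not be checked against marker genes. The join itself held: the rank correlation across rows between the mean levels of d0 and chow was 0.933 on the same line and 0.00135 when one table was moved by 1 line, and 0.935 and -0.00109 for d0 and vehicle.

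Total counts were between 2881190 and 6168113 in the 11 libraries and between 6570021 and 7062900 in the d1 libraries. Levels are given as CPM, the counts of a row relative to the total of its library. In the 11 libraries 3 counts were worth 0.486 to 1.04 CPM, a limit that covers counting error only. Levels of rows below are scaled with TMM factors, which correct for differences in library composition, over all 45 libraries unless stated otherwise. Distances and the median of each library over the tested rows use factors over the chow, vehicle, d0 and d1 libraries only. Fold changes come from fits with factors of their own. By these, d0 stood 0.12 higher against chow and 0.08 higher against vehicle on the log2 scale than in the printed levels of rows.

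One d0 library stood apart. Distances were computed between libraries as the Euclidean distance of log2(CPM + 1) over the 12731 rows tested. Replicates A and C of d0 were 42.1 apart, whereas replicate B was 57.9 from A and 63.3 from C. Replicate B was also nearer to the controls, with a median distance of 137 to chow and 134 to vehicle, against 149 and 146 for A and 145 and 140 for C. The biological coefficient of variation, the relative spread between replicates beyond counting error, was 0.200 for d0 and 0.107 without replicate B. It was 0.162 for chow, 0.163 for vehicle and 0.0362 for d1.

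Distances between d0 and the controls exceeded those between the controls. The median distance was 143 from d0 to chow and 140 from d0 to vehicle, with ranges of 127 to 151 and 121 to 153. Chow and vehicle libraries, which also came from different experiments, were 67.5 apart, with a range of 53.9 to 87.5, and libraries of 1 control group were between 39.6 and 60.8 apart. The ranges of d0 to control and of control to control did not overlap. From d0 to d1 the median distance was 151, and from d1 it was 177 to chow and 173 to vehicle. The d0 libraries were thus about as far from the controls as from cells cultured for a day.

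**Figure D1:**
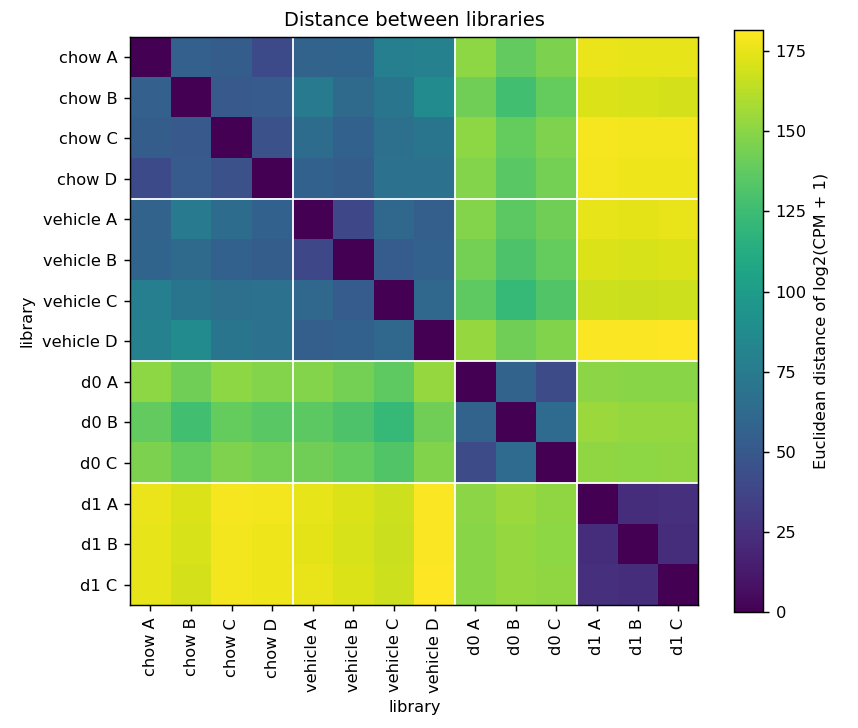
Euclidean distance of log2(CPM + 1) over the tested rows between each pair of the 14 chow, vehicle, d0 and d1 libraries, with white lines between groups. The block of chow and vehicle libraries lies below 90, d0 lies between 121 and 153 from every control, and d0 replicate B lies nearer to the controls than replicates A and C.

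Against chow, 4020 rows were higher on d0 (31.6% of the 12731 rows tested) and 3987 were lower (31.3%). Calls rest on edgeR's quasi-likelihood test with a Benjamini-Hochberg adjusted p (FDR) up to 0.05, and on a log2CPM, averaged over both groups compared, of more than 2. Against vehicle, 4088 rows were higher (32.1%) and 3908 were lower (30.7%). Between chow and vehicle, in the same fit, 1175 rows were higher in chow (9.23%) and 1370 were lower (10.8%). The number higher in chow fell to 695, 741, 636 and 778 without vehicle A, chow A, chow B and chow D, respectively.

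Changes of d0 were also larger than the difference between the controls. The median absolute log2 fold change over the tested rows was 0.78 against chow and 0.77 against vehicle, and 0.28 between chow and vehicle. At least 2-fold differences were called in 2202 higher and 2034 lower rows against chow and in 2157 and 2013 against vehicle, compared with 92 and 280 between the controls.

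Agreement with each control on its own was then required. A total of 3464 rows were higher on d0 than both controls (27.2% of those tested) and 3184 were lower (25%). The higher rows had a median log2 fold change of 1.19 against chow and 1.15 against vehicle, and the lower rows of -1.12 and -1.10, where the median of all tested rows was -0.02 and -0.03. Both comparisons use the d0 libraries, so that an error on that side enters both, and this count is no independent check of either. The agreeing rows made up 86.2% of the rows higher than chow and 84.7% of those higher than vehicle, and 79.9% and 81.5% of the lower ones. No count was found in chow for 9 of the higher rows and in vehicle for 5, and both medians were the same with these rows at the bound set by 3 counts over the group.

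About as many agreeing rows lay under as over a 2-fold difference. Of the higher rows, 1757 were at least 2-fold higher than both controls, 542 at least 4-fold and 119 at least 16-fold. Of the lower rows, 1501 were at least 2-fold, 276 at least 4-fold and 8 at least 16-fold lower. In 3138 of the higher rows, every d0 library was above all 8 control libraries, which was so in 27.6% of all rows tested. Likewise, every d0 library was below all 8 control libraries in 2822 of the lower rows, and in 24.7% of all rows. The calls use the same values, so both counts follow in large part from the choice of rows.

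The split of calls depended on the scaling. TMM factors were between 0.845 and 0.883 for d0 and between 0.999 and 1.11 for the controls. With library totals in their place, the median log2 fold change of all tested rows was -0.28 against chow and -0.32 against vehicle, and 2539 rows were higher and 4414 lower than both controls, so that 36.5% of the agreeing rows were higher instead of 52.1%. With all 45 libraries in 1 fit, 2890 rows were higher and 3344 lower. In neither setting was an agreeing row called in the other direction against both controls.

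Without d0 replicate B, 3325 rows were higher and 3279 lower than both controls, and 3173 of the 3464 and 2950 of the 3184 were among them. Replicate B could then be read in rows it had not chosen. The median difference of log2(CPM + 1) from the controls in the 3325 higher rows was 0.97 in B, 1.12 in A and 1.07 in C, where A, C and the controls had chosen the rows. In the 3279 lower rows it was -1.05 in B and -1.18 and -1.19 in A and C. Replicate B thus differed from the controls in the same direction. Its median was also nearest to 0 in the rows it had helped to choose. In the 3464 higher rows it was 0.99 in B, 1.10 in A and 1.06 in C. In the 3184 lower rows it was -1.11 in B, -1.20 in A and -1.19 in C. The part of the choice of rows in the smaller medians of B was not tested.

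**Figure D2:**
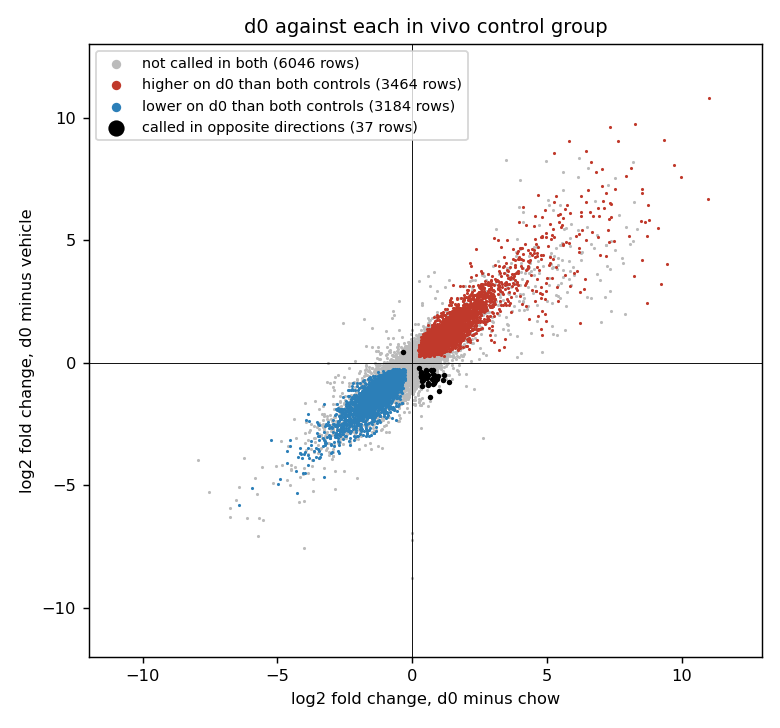
Log2 fold change of d0 against chow (x axis) and against vehicle (y axis) for the 12731 tested rows, 1 point per row, coloured by call. The 3464 rows higher and the 3184 rows lower than both controls lie along the diagonal, both axes share the d0 libraries, and the 37 black points are rows called in opposite directions.

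Higher and lower rows were spread differently over the mean level, which includes the d0 libraries. A row raised on d0 moves up this scale and a lowered row moves down. In the controls alone, the higher and lower rows had medians of 46.1 and 44.4 CPM with the TMM factors of the 11 libraries. On d0 the medians were 104 and 18.6 CPM. Among 3481 rows with a mean log2CPM between 6 and 8, 39.4% were higher and 22.3% were lower than both controls. Among 4552 rows between 4 and 6, the shares were 25.3% and 34.2%, and among 2441 rows between 2 and 4 they were 18.8% and 29.8%. Above 8, with 717 rows, they were 33.1% and 15.9%. Below 2, with 1540 rows, 15.7% were higher and 0.519% lower. There the limit on the mean level favours raised rows, since the mean of d0 and 1 control still had to exceed 2. In that mean d0 weighs more than in the mean of all 11 libraries. The shares below 2 thus follow largely from the rule for calls and say nothing on the order. On the scale of the libraries, the median of log2(CPM + 1) over the tested rows was 5.13 ± 0.028 on d0 (SD, n = 3), 5.21 ± 0.018 (SD, n = 4) in chow and 5.24 ± 0.022 (SD, n = 4) in vehicle. Both differences had p = 0.0286 by exact permutation of the libraries (two-sided), which is the lowest p that 3 against 4 libraries allow, and 0.0571 after Benjamini-Hochberg adjustment over the 6 tests of this kind. With the TMM factors of the 11 libraries the medians were 5.10, 5.18 and 5.20, in the same order. The size of this difference was set largely by the scaling: d0 minus control was -0.08 for chow and -0.11 for vehicle with TMM factors, and -0.33 and -0.39 with library totals.

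More rows were detected on d0 than in chow. After each library had been thinned to 2881190 counts, 15311 ± 241 rows (SD, n = 3) had at least 1 count on d0, 14324 ± 90.8 (SD, n = 4) in chow and 14790 ± 175 (SD, n = 4) in vehicle. The difference from chow had an exact permutation p of 0.0286 (adjusted 0.0571), again the lowest possible, and that from vehicle 0.0571 (adjusted 0.0857). Vehicle A, with 15027 rows, was level with d0 replicate B, with 15033. Counted from 5 reads upwards, d0 exceeded chow by 224 rows and vehicle by 69.1, with exact permutation p of 0.0571 and 0.486. The 10 highest rows held 2.22% ± 0.249 (SD, n = 3) of the counts on d0, 2.46% ± 0.173 (SD, n = 4) in chow and 2.32% ± 0.138 (SD, n = 4) in vehicle, with exact permutation p of 0.229 and 0.457 (adjusted 0.274 and 0.457).

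The 10 rows with the largest rise were nearly silent in control mice. They were taken by the smaller of their 2 fold changes among rows whose d0 libraries were above all controls, so their size is a description. Row 13054 stood at 240.3, 9.88 and 194 CPM in d0 libraries A, B and C. In the 8 control libraries it was at 0 in 6 and at 0.187 and 0.23 CPM in the others. The row held 1715 counts on d0 and 2 counts in all controls, a ratio of 2599 with a 95% interval of 718 to 21475 that covers counting error only. On d1 it was at 7.07, 4.6 and 5.81 CPM, and on d12 at 0.272 CPM.

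Row 18815 was at 116, 2.47 and 110 CPM on d0 and at most 0.405 CPM in any control. Its mean was 48.3 ± 3.19 CPM (SD, n = 3) on d1 and 80.2 on d12, so that it stayed high in culture. Row 3063, at 81.5, 56.6 and 51.1 CPM on d0, reached at most 0.747 in controls and was down to 5.09 ± 0.826 CPM (SD, n = 3) on d1. Row 8438 showed the opposite course. It was at 87.8, 54.3 and 93.8 CPM on d0, at most 1.22 in controls, 87.5 ± 10.3 (SD, n = 3) on d1 and 442 on d12.

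Row 20318 was at 18.4, 5.14 and 18.6 CPM on d0 and had no count in any d1 library. In controls it held 1 count in all, against 164 on d0. Row 23 was at 28.4, 2.88 and 29.0 CPM on d0, and held 1 count in chow and 1 in vehicle. It was at 0.187 CPM on d1, but its mean was 19.9, 214 and 142 CPM in mice fed WD for 12, 16 and 24 weeks and 57.1 CPM after 8 weeks of CCl4. A row nearly absent from control mice and raised on d0 thus also had high levels in cells sorted straight from treated mice. Of the other 4 of these rows, 22308, 12086 and 21280 had d0 means of 22.1, 22.1 and 26.3 CPM and d1 means of 0.839, 2.63 and 7.41 CPM, and row 4347 went from 71.9 to 33.3 CPM.

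Replicate B was the lowest d0 library in 9 of these 10 rows. In rows 13054, 18815, 12086, 23 and 21280 it was below 10 CPM where A and C were between 28.4 and 240.3. In rows 22308 and 20318 it was at 6.59 and 5.14 CPM where A and C were between 18.4 and 35.4. All 10 stayed called against both controls without replicate B, which is no check where B was the lowest d0 library. These rows were not read without A or without C.

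Of 5556 rows with no count in any of the 8 control libraries, 40 had at least 3 counts in every d0 library. Their group means on d0 were between 0.899 and 7.73 CPM, with a median of 1.67 CPM. On d1 the median was 0.235 CPM, and on d12 it was 0.0861. Replicate B was the lowest of the 3 in 32 of the 40 rows. Row 16174 was the highest of them, at 9.63, 4.12 and 9.45 CPM on d0. With the d0 libraries pooled and set against 3 counts over all controls, it was at least 92.9-fold higher on d0. This bound covers counting error only and not the spread between d0 libraries. Rows 3044 and 15973 were at least 87.9-fold and 76.8-fold higher by the same pooled bound. In d0 libraries A, B and C they were at 12.1, 2.06 and 7.49 CPM and at 9.63, 2.26 and 7.17 CPM.

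The rows with the largest fall were of another kind. Their group means were between 5.98 and 52.7 CPM in controls and between 0.177 and 2.64 CPM on d0. With the exception of row 4079, their levels differed several-fold between the libraries of at least 1 control group. Row 11566 was at 93.9, 13, 26.5 and 68.1 CPM in chow, at 125, 37.7, 10.9 and 37.3 CPM in vehicle and at 1.12, 1.85 and 4.56 CPM on d0. Its log2 fold change was -4.31 ± 0.96 (SE) against chow, with an FDR of 0.00106, and -4.42 ± 0.96 (SE) against vehicle, with an FDR of 9.09e-04. Row 14030 was at 7.22 to 43.1 CPM in chow, at 3.04 to 23.9 CPM in vehicle and at 0, 0.206 and 0.977 CPM on d0. Chow B was the lowest chow library in 9 of the 10 rows and vehicle C the lowest vehicle library in 9, while vehicle A was the highest in all 10. The same control libraries were thus high or low across these rows, and the part of that spread in their fall was not tested.

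These rows were also high in WD-fed mice. The study proposes that libraries of WD-fed mice hold more hepatocyte transcripts, from broken cells and debris. It also holds traces of macrophage RNA in its sorted HSCs to be likely. Whether these unnamed rows are of either kind was not tested. The group means of row 11566 were 842, 895 and 540 CPM at 12, 16 and 24 weeks of WD, against 50.4 CPM in chow, and those of row 10458 were 344, 341 and 259 CPM against 16.6 CPM. In 9 of the 10 rows every WD group was above 80 CPM. Row 4079 was the exception. It was at 12.2 to 16.6 CPM in chow and 8.92 to 11.3 CPM in vehicle, at 0.672, 0.617 and 0.652 CPM on d0, and at 24.4 to 27.6 CPM in WD-fed mice. Its log2 fold change of -4.24 ± 0.32 (SE) against chow had an FDR of 5.55e-08, and that of -3.84 ± 0.33 (SE) against vehicle an FDR of 1.92e-07. Its level was 2.93 ± 0.715 CPM (SD, n = 3) on d1 and 4.15 CPM on d12. After CCl4 these rows had no shared direction. At 8 weeks, row 11566 was at 12.8 CPM against 52.7 CPM with vehicle, a log2 fold change of -2.21 with an FDR of 0.0305 in edgeR's quasi-likelihood test. Rows 17481, 21412, 12965 and 4079 were higher than with vehicle, with FDRs between 0.00414 and 0.0457, and the other 5 rows had FDRs of 0.112 or more. Of the 9 rows besides row 4079, 8 were too low in culture to be tested there.

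**Figure D3:**
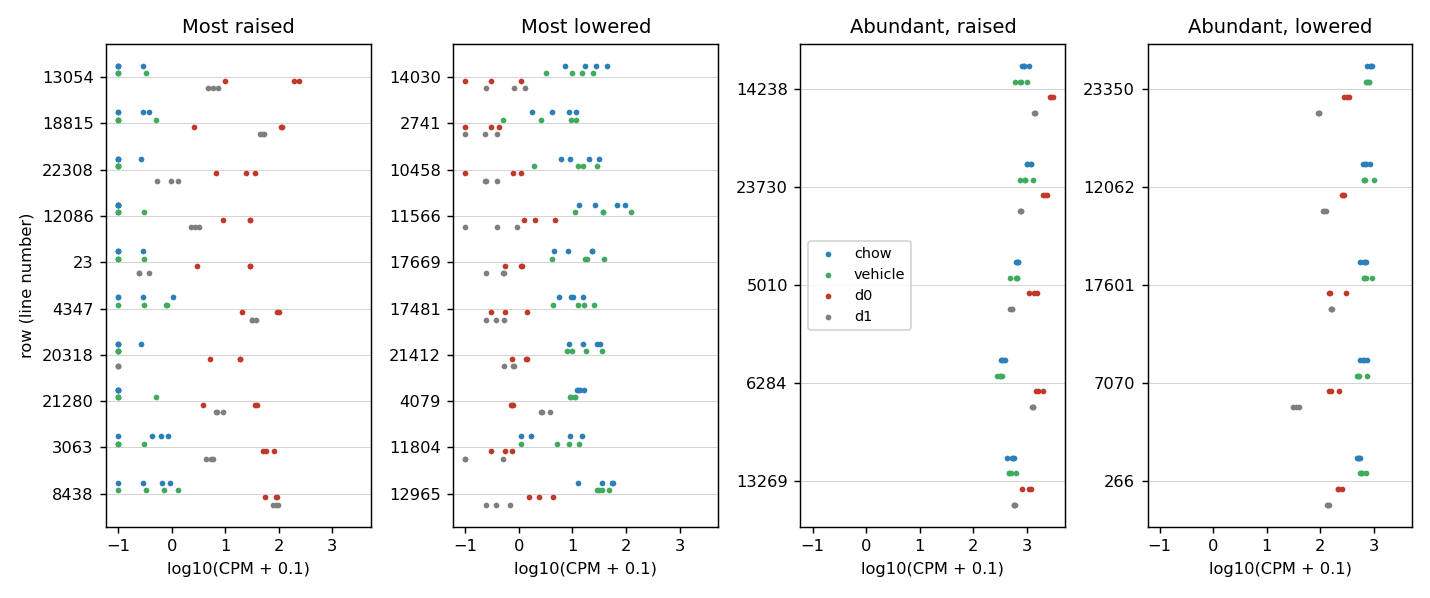
Level of the named rows in each chow, vehicle, d0 and d1 library as log10(CPM + 0.1), 1 point per library, for the 10 most raised, the 10 most lowered, the 5 most abundant raised and the 5 most abundant lowered rows. The raised rows sit near 0 CPM in controls and spread on d0, and the lowered rows sit near 0 CPM on d0 and, except row 4079, spread in controls. The abundant rows spread less, apart from d0 replicate B in row 17601.

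Rows of high abundance spread less between libraries. Row 6284 was at 328 to 400 CPM in chow, at 280 to 351 CPM in vehicle and at 1608, 1478 and 1992 CPM on d0. Its mean was 1693 ± 267 CPM (SD, n = 3) on d0, 359 ± 29.9 (SD, n = 4) in chow and 316 ± 29.2 (SD, n = 4) in vehicle, a log2 fold change of 2.36 ± 0.13 (SE) and 2.50 ± 0.13 (SE), with FDRs of 2.77e-09 and 2.95e-09. In culture it remained at 1291 ± 27.2 CPM (SD, n = 3) on d1. Row 14238, the most abundant, was at 2849.5, 2734 and 3157 CPM on d0, at 812 to 1121 CPM in chow and at 599 to 1013 CPM in vehicle. On d1 it was down to 1420 ± 37.7 CPM (SD, n = 3), with every d1 library still above every control. The d0 libraries of both rows were above every control and every d1 library.

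Rows 23730, 5010 and 13269 were raised on d0 by 1.13, 1.13 and 1.13 on the log2 scale against chow, with FDRs between 3.58e-06 and 2.56e-05. Their means were 2228, 1344 and 1048 CPM on d0 and 769, 522 and 593 CPM on d1. On d1, rows 23730 and 5010 were below their chow means of 1109 and 666 CPM, and row 13269 was near its chow mean of 519.5 CPM.

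In 4 of the 5 abundant lowered rows every d1 library was below every d0 library. Row 7070 was at 555 to 760 CPM in chow, at 497 to 756 CPM in vehicle and at 163, 221 and 149 CPM on d0. Against chow its log2 fold change was -1.74 ± 0.18 (SE), with an FDR of 1.06e-06, and against vehicle -1.62 ± 0.18 (SE), with an FDR of 2.19e-06. On d1 it was at 35.8 ± 4.67 CPM (SD, n = 3). Row 23350 went from means of 860 CPM in chow and 771 CPM in vehicle to d0 and d1 means of 312 ± 31.0 CPM (SD, n = 3) and 92.3 ± 2.33 CPM (SD, n = 3). Rows 12062 and 266 were at 271 and 227 CPM on d0 and 121 and 139 CPM on d1. Row 17601 was at 147, 299 and 152 CPM on d0 and 163 ± 2.57 CPM (SD, n = 3) on d1, so that d1 lay above d0 A and C. In this row replicate B was the one nearest to the controls, at 545 to 916 CPM.

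Only 37 rows were called in opposite directions, 36 of them higher on d0 than chow and lower than vehicle. Row 2631 lay between the controls in every library, at 26.3 to 37.2 CPM in chow, 48.9 to 52.4 CPM on d0 and 81.9 to 104 CPM in vehicle. Its log2 fold change was 0.81 ± 0.15 (SE) against chow and -0.81 ± 0.14 (SE) against vehicle, with FDRs of 1.80e-04 and 1.70e-04. A single control group would have given this row either direction. For row 294 the values were 0.79 ± 0.25 (SE) and -0.89 ± 0.25 (SE), and for row 2808 0.99 ± 0.41 (SE) and -1.14 ± 0.39 (SE). In row 2808, d0 replicate B was at 9.26 CPM and A and C at 3.58 and 2.61 CPM, against 1.68 to 3.44 CPM in chow. The 1 row lower than chow and higher than vehicle was row 21374, named after its values were seen, at 44.9 to 65.4 CPM in chow, 39.3 to 43.2 CPM on d0 and 30.8 to 35.8 CPM in vehicle.

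A total of 3413 rows (26.8% of those tested) were called against neither control. Some of the most abundant rows kept their in vivo level on d0 and then fell. Row 10862 was at 1451 to 1843 CPM in chow, at 1362 to 2089 CPM in vehicle and at 1373, 1209 and 1995 CPM on d0. By d1 it was down to 288 ± 14.2 CPM (SD, n = 3), a log2 fold change of -2.50 ± 0.13 (SE) from d0 with an FDR of 7.26e-12. Row 14096 was at 601, 600.3 and 590.4 CPM in chow, vehicle and d0 and at 81.7 ± 6.80 CPM (SD, n = 3) on d1. Row 21366 was at 659, 661 and 642 CPM and then at 222 ± 7.85 CPM (SD, n = 3). These 3 rows were picked for an equal level on d0 and in controls.

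Rows without a count on d0 were seldom found in every control library. Of 6396 rows with no count in any d0 library, 1 had at least 3 counts in every control library. This was row 17277, named after its values were seen, at 0.492 to 2.24 CPM in chow and 2.46 to 5.57 CPM in vehicle. With the controls pooled and set against 3 counts over the d0 libraries, it was at least 9.9-fold lower on d0, counting error only. Of the 6396 rows, 1872 had a count in some control library. Of 5556 rows without a count in controls, 1032 had one on d0. The controls are 8 libraries and d0 is 3, so neither these numbers nor the 1 and 40 rows are a like comparison. The 3 rows without a count on d0 that had the highest mean in controls did not describe the controls as a whole. Rows 11215 and 4648 came from vehicle C, at 63.9 and 53.9 CPM, with no count in any other vehicle library. Row 12872 was found in all vehicle libraries, at 3.27, 5.05, 3.65 and 38.6 CPM, and in no chow library.

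The step from d0 to d1 was of similar size. With the 15 culture libraries in 1 fit, 4733 rows were higher on d1 than on d0 (34.7% of 13655 tested) and 4469 were lower (32.7%). Both sides of this comparison may be technical replicates, as stated above. Over the 12322 rows tested in both fits, the median absolute log2 fold change was 0.76 for d0 against chow, 0.75 against vehicle, 0.28 between the controls and 0.79 for d1 against d0. A difference of at least 2-fold was seen in 38.4%, 37.3%, 5.97% and 40.0% of these rows, respectively. All but the comparison between the controls use the d0 libraries, so no test of their difference or overlap was made.

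Side by side, the rows higher on d0 than both controls had a median log2 fold change from d0 to d1 of -0.36, with quartiles of -1.06 and 0.19. For the rows lower on d0 than both controls, 3121 of the 3184 were tested on d1, with a median of 0.43 and quartiles of -0.56 and 1.09. Either set thus held rows that went back toward the control level and rows that moved further from it. A high value of d0 by error would lower the d1 change, and this part was not tested.

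Relative to the controls, the level of the 3464 higher rows was raised in every culture group. The median difference of log2(CPM + 1) from the mean of the controls was 1.04 on d0, 0.82 on d1, 0.54 on d4, 0.57 on d8 and 0.55 on d12. In the 3184 lower rows it was -1.17, -0.75, -0.52, -0.55 and -0.52. The d0 values describe the choice of rows. In the 6 groups of treated mice the medians were between -0.04 and 0.05 for the higher rows and between -0.12 and 0.10 for the lower rows. All culture groups come from the same experiment as d0, so a difference of that experiment from the animal experiments cannot be told apart from a lasting change.

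**Figure D4:**
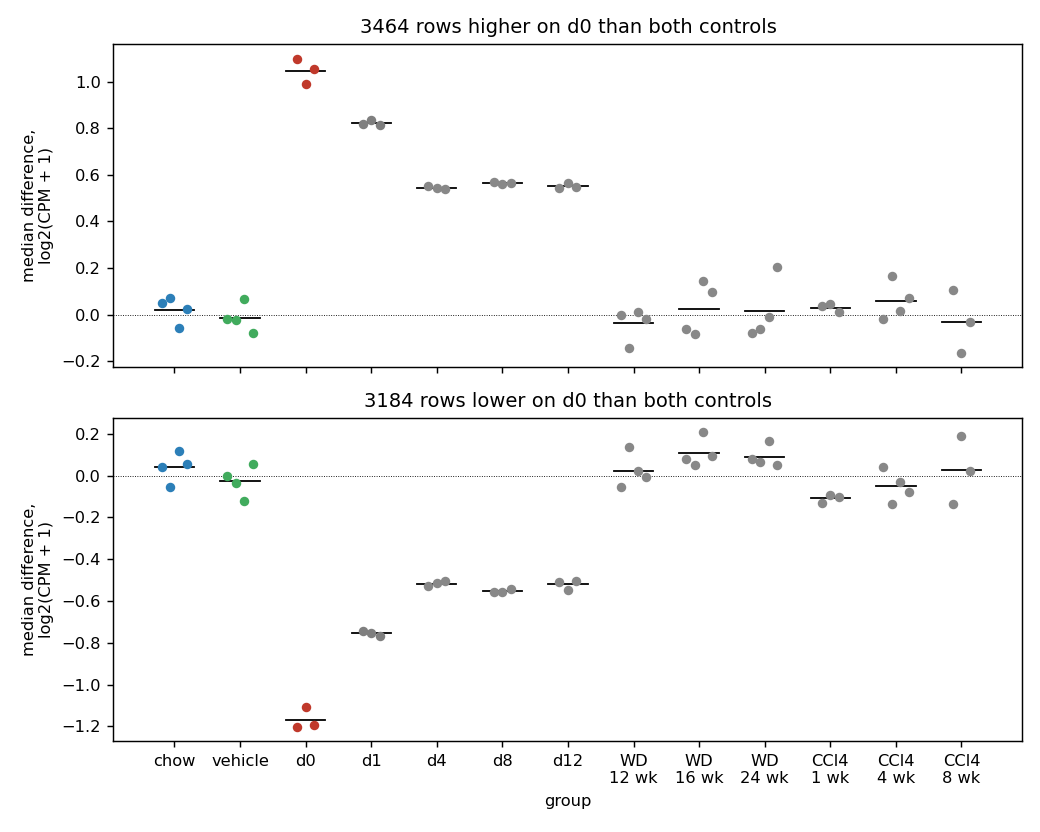
Median difference of log2(CPM + 1) from the mean of the control groups over the 3464 rows higher (top) and the 3184 rows lower (bottom) on d0 than both controls, in each of the 45 libraries, with lines at group means. The difference is largest on d0, where the rows were chosen, was at 0.82 and -0.75 on d1, and libraries of treated mice lie around 0.

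The comparison of d12 with d1 shares no library with the choice of rows. In it, 4298 of 13655 rows were higher on d12 (31.5%) and 4364 were lower (32%). Of the 3464 rows higher on d0 than both controls, 747 (21.6%) were higher and 1814 (52.4%) lower on d12 than on d1, with a median log2 fold change of -0.31. Of the 3121 tested rows that were lower on d0, 1320 (42.3%) were higher and 754 (24.2%) lower, with a median of 0.16, where that of all rows tested was 0.00.

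Other sets of rows, chosen against 1 control group only, were read in HSCs from treated mice of the other animal experiment. Mice fed WD for 24 weeks were compared with chow, and 3236 of 13510 rows were higher (24%) and 2241 lower (16.6%). Among rows higher on d0 than vehicle, chosen without the chow libraries, 3789 were tested, of which 623 (16.4%) were higher and 793 (20.9%) lower after WD. Among 3778 tested rows lower on d0 than vehicle, 948 (25.1%) were higher and 639 (16.9%) lower. The median log2 fold change was -0.09 and 0.08, against 0.06 over all rows.

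After 8 weeks of CCl4, 2945 of 13513 rows were higher than with vehicle (21.8%) and 3246 lower (24%). Among 3775 tested rows higher on d0 than chow, chosen without the vehicle libraries, 713 (18.9%) were higher and 1009 (26.7%) lower after CCl4. Among 3972 rows lower on d0 than chow, 727 (18.3%) were higher and 1175 (29.6%) lower. The median was -0.13 and -0.09, against -0.01 over all rows.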

How the data were processed

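RNA of sorted HSCs was polyA-selected and sequenced. The authors aligned reads to mm10 with STAR and deposited raw read counts per row. Per the file headers, exon reads were counted by Homer without regard to strand, keeping 1 transcript for a gene and no more than 3 reads at a position; tool versions are not given in the sources used here. Capping reads per position compresses high rows, and reads of overlapping antisense genes cannot be told apart. The same source libraries stand in the header command of every table, so columns were assigned by the titles on their second line, all of which were used.

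Groups came from the labels. The fit held d0, chow and vehicle (11 libraries) in edgeR 4.0.16 (R 4.3.3) with TMM, filterByExpr and the quasi-likelihood test, and p-values were adjusted by Benjamini-Hochberg. Calls needed an FDR up to 0.05 and a log2CPM over 2. Culture, WD and CCl4 libraries were each fitted alike. SEs were derived from the fold change and F statistic. Fitted fold changes use edgeR's prior count.

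Named rows were the 10 highest and 10 lowest agreeing, non-overlapping rows by their smaller fold change, the 5 most abundant at least 2-fold in each direction, 3 absent from each side, 3 opposite and 3 at a shared level. Members and rules were chosen with earlier results of these data known. Alternatives were library totals, DESeq2 1.42.0 and its size factors, limma-voom (limma 3.58.1), other filters, thresholds, sets of libraries and depths, a replicate block and leaving out libraries. The share of the 100 highest rows and the reading of d0 replicate B in rows chosen without it were added after seeing the data. Gene names, markers and sequences were not used here, since counts did not follow identifiers.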

Additional observations from a re-analysis of the deposited data

Results flagged for a closer look

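A total of 6 values stood far from the other 3 libraries of their group, beyond Dixon's 95% critical value for 4 libraries. In all, 65 groups of 4 were examined. Chance gives about 1 in 20 for values that were not selected, but most of these were rows chosen from the same values. Among them, rows 11215, 4648 and 12872 were picked for a high mean in controls, which favours rows with 1 high library. The number of outliers is therefore not set against chance. Row 11215 was at 63.9 CPM and row 4648 at 53.9 CPM in vehicle C, with no count in the other vehicle libraries. Row 12872 was at 38.6 CPM, row 12062 at 999 CPM and row 7070 at 756 CPM in vehicle D, the library with the fewest counts. Row 2808 was at 1.68 CPM in chow A, below the other 3 chow libraries.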

How the results depend on the processing

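Under no alternative was an agreeing row called in the other direction against both controls. With a fold change of at least 2 as the null, 1150 rows were higher and 735 lower on d0 than both controls, 1497 and 1109 than chow and 1400 and 1100 than vehicle, 1 and 15 rows differed between chow and vehicle, none was called in opposite directions (0), 1461 and 1906 rows were higher and lower on d1 than d0, and 1513 and 750 on d12 than d1. The opposite calls numbered 24 with only the compared groups in each fit, 16 with all 45 libraries in 1 fit, and 24 to 42 when 1 library was left out. Rows higher in chow than vehicle numbered 764 in thinned libraries, and 636 to 1535 when 1 library was left out. Rows detected with at least 5 counts exceeded chow by 224. The exact permutation p was 0.0571 without adjustment, against 0.0286 (adjusted 0.0571) with at least 1 count. Under the other normalizations, tests, filters and omissions, the remaining counts stayed within 1.5 times, with 3038 to 3495 rows higher and 2846 to 3279 lower than both controls when 1 library was left out. The 30 extreme and abundant rows stayed called against both controls with library totals, DESeq2 and without d0 replicate B. For the 10 most raised rows this omission is a weak check, since B was the lowest d0 library in 9 of them.

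Letters were not taken to pair libraries between groups. Deviations from group means correlated between -0.15 and 0.13 for d0 and the controls and between 0.09 and 0.45 for chow and vehicle. Vehicle A, B and D correlated best with the chow library of their letter, and vehicle C did not. With d0, vehicle B, chow B and chow C did so, and vehicle A, vehicle C and chow A did not. Whether letters mark a shared batch was not tested. With the letter as a replicate block, 3405 rows were higher and 3171 lower than both controls, and 4720 and 4436 on d1 than d0. Depth limits rows near 3 counts, worth 0.486 to 1.04 CPM in the 11 libraries. Of the 10 most lowered rows, 8 were too low in culture to be fitted.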
